A study of Arabidopsis thaliana with 7 samples.

Results

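Transcripts of 8 nuclear genes of photosynthesis and chlorophyll synthesis were followed in Arabidopsis thaliana seedlings exposed to CdS QDs, which are quantum dots of cadmium sulfide, crystals a few nanometres across. The genes were the antenna genes LHCB4.1, LHCB4.2 and LHCB4.3, the photosystem genes PSAN and PSBY, the carbon fixation genes RCA and SBPASE, and the chlorophyll synthesis gene PORB. They were chosen by name, with earlier results of these data known, and make up 8 of the 13356 genes that could be read from the arrays. All 8 are nuclear genes, and each was read by 1 probe set. The 7 Affymetrix ATH1 arrays each stood for 1 group, and all plants were of the accession Ler-0. Wild type (WT) received 0, 40 or 80 mg/L, and the labels mark the highest dose as the MIC of WT. Both mutants, atnp01 and atnp02, are called resistant or tolerant in the labels and received 0 or 80 mg/L. In every group, unexposed ones included, seedlings were moved after 14 days to fresh Murashige and Skoog medium and stayed on it for 21 days more, under 16 h of light a day. Which genes the mutations affect, and whether a sample pooled several plants, is not given in the sources used here.

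Light is collected by antenna proteins around 2 photosystems, which drive electron transport and supply the Calvin cycle with energy and reducing power. The LHCB4 proteins are minor antenna proteins of photosystem II that link its core to the outer antenna, and in Arabidopsis 3 genes encode them. Chlorophyll is made in the plastid by enzymes encoded in the nucleus, and its precursors are harmful in the light when they build up. Leaves usually hold very large amounts of the transcripts of many photosynthesis genes.

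Levels are given as log2 values, and a log2 difference of 1 is taken as 2-fold. All genes but LHCB4.3 and PORB were among the brightest on the arrays. RCA ranked at or above percentile 99.96 of the 22746 probe sets on every array. The lowest percentile was 99.8 for LHCB4.1, 99.7 for PSAN and PSBY, 98.8 for LHCB4.2 and 98.6 for SBPASE. PORB stood between percentiles 85.4 and 96.9, and LHCB4.3 between 74.1 and 88.5. Because different probe sets bind with different strength, these ranks say nothing of the ratio of one transcript to another. RCA reached 11.62, where the lowest array maximum was 12.06, and saturation was not tested.

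**Figure D1:**
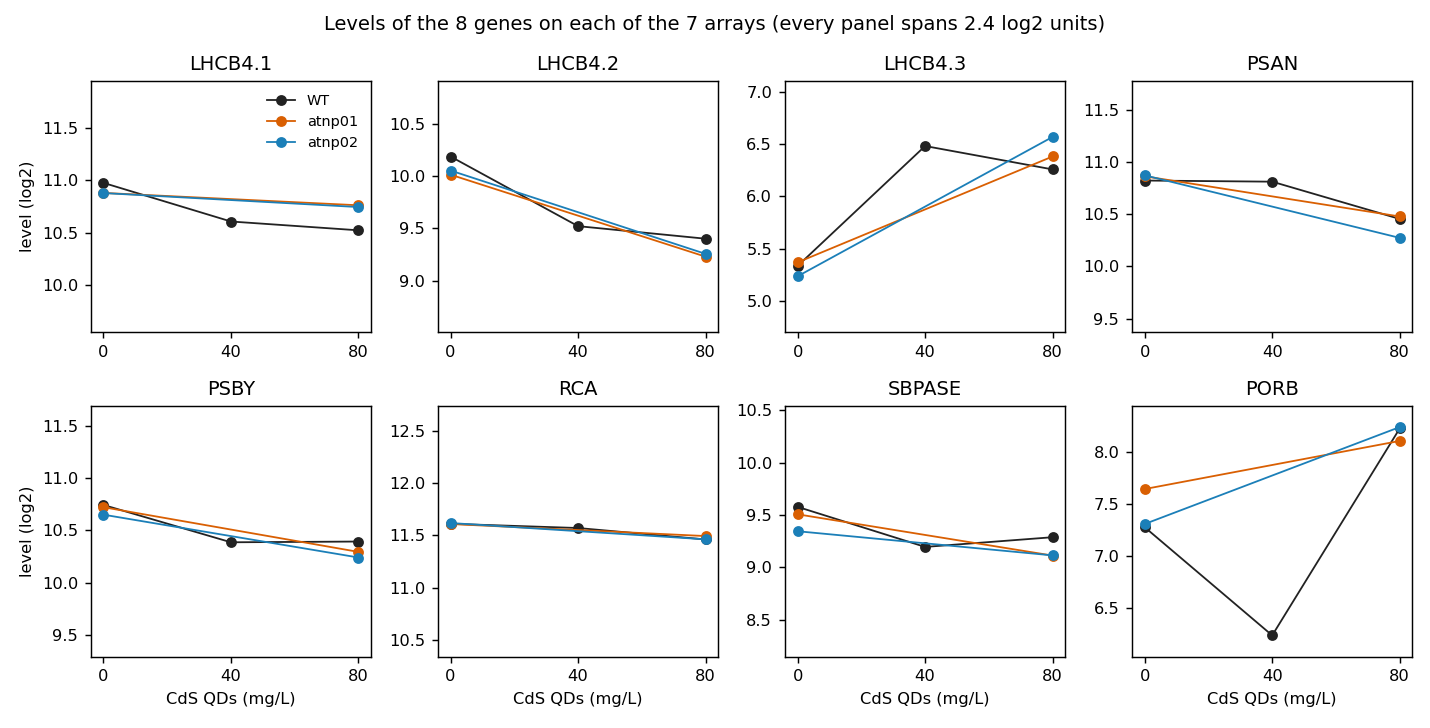
Level (log2, vertical axis) of each gene against the CdS QD concentration (mg/L, horizontal axis), with 1 point per array and lines joining arrays of 1 plant line. All panels span the same log2 range, so slopes can be compared: LHCB4.3 and PORB end higher at 80 mg/L, the other genes end lower, and PORB of WT dips to 6.24 at 40 mg/L.

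Across the 3 lines, 6 of the 8 genes fell at 80 mg/L and LHCB4.3 and PORB rose. LHCB4.2 fell the most, to 0.579 of its unexposed level, and LHCB4.3 rose to 2.13 times its level. These values come from limma, fitted to the unexposed and 80 mg/L arrays of all lines with terms for line and dose, with Benjamini-Hochberg adjustment over 2106 genes and a threshold of 0.05. After loess normalization LHCB4.1 and RCA no longer passed. The other genes that fell still passed with smaller coefficients: -0.71 for LHCB4.2, -0.35 for PSAN, -0.30 for PSBY and -0.23 for SBPASE. Those of LHCB4.3 and PORB were then 1.11 and 0.82, slightly larger than before. Since no group had a second array, the error of a gene starts from how far the 3 lines differ in their response. In limma it is then drawn towards the spread of all tested genes of like brightness. That shared spread weighed as 4.9 degrees of freedom, against 2 from the gene itself. An SE or adjusted p here thus does not measure the spread among the lines alone. Changes of this kind were common: 29.3% of the 2106 genes fell, and 27.8% rose. The coefficients of the 8 genes had a median of -0.27, and those of all tested genes a median of -0.03. For all 8 genes, the arrays at 80 mg/L did not overlap those at 0 mg/L, 6 genes lying lower and 2 higher. Of all tested genes, 34.1% lay lower without overlap and 30.4% higher. Since the 8 genes were chosen with earlier results known, these comparisons with all genes are descriptions and not a test. LHCB4.3 reached the floor for testing, log2 6, on its 4 exposed arrays only, so it could enter the test only by differing.

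The antenna genes moved apart from each other. LHCB4.1 was at 10.98 in WT, 10.88 in atnp01 and 10.88 in atnp02 without dots, and at 10.52, 10.76 and 10.74 at 80 mg/L, with 10.61 in WT at 40 mg/L. The exposed WT arrays were the lowest, and the exposed mutants lay just below all unexposed arrays. In the fit it fell by 0.24 (SE 0.08, adjusted p = 0.0381), a call that was lost in 6 of 14 alternative fits, among them those without the WT arrays (-0.13, adjusted p = 0.0722) and without the atnp02 arrays (-0.29, adjusted p = 0.0592). After loess normalization its coefficient was -0.13 and its difference in atnp01 was 0.04 in place of -0.12.

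LHCB4.2 was at 10.19 in WT, 10.01 in atnp01 and 10.05 in atnp02 without dots, and at 9.40, 9.23 and 9.26 at 80 mg/L, with 9.52 in WT at 40 mg/L. All 4 exposed arrays were well below the 3 unexposed ones. The 3 lines responded almost alike, with differences of -0.79, -0.78 and -0.80. The gene fell by 0.79 (SE 0.06, adjusted p = 0.000102), and the call was kept in all 14 alternative fits.

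LHCB4.3, the isoform known in Arabidopsis for its accumulation under lasting high light, was the dimmest of the 8 on unexposed arrays. It was at 5.34 in WT, 5.37 in atnp01 and 5.24 in atnp02 without dots, and at 6.26, 6.38 and 6.57 at 80 mg/L, with 6.48 in WT at 40 mg/L. All exposed arrays were higher than all unexposed arrays, and the WT array at 40 mg/L was higher than that at 80 mg/L. The gene rose by 1.09 (SE 0.11, adjusted p = 0.000289), and with no floor, so that its entry did not depend on its response, the adjusted p was 0.00147.

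Setting the responses of the isoforms against each other removes a shift that is equal for all probe sets of an array. It does not remove one that differs between dim and bright probe sets, and LHCB4.3 is much dimmer than the other isoforms. The response of LHCB4.3 exceeded that of LHCB4.2 in WT by 1.71, in atnp01 by 1.80 and in atnp02 by 2.13, with a mean of 1.88 ± 0.22 (SD, n = 3 lines). Against LHCB4.1 the mean was 1.32 ± 0.17, and against the mean of both it lay between 1.46 and 1.80. The response of LHCB4.2 minus that of LHCB4.1 was -0.33 in WT, -0.67 in atnp01 and -0.66 in atnp02. Each of these contrasts had the same sign in 3 of 3 lines. A two-sided exact permutation test of 3 exposed against 3 unexposed arrays gave p = 0.1 for each, the smallest value that this design allows, so none could pass 0.05. At 40 mg/L in WT, the response of LHCB4.3 was higher than that of LHCB4.2 by 1.81 and than that of LHCB4.1 by 1.51.

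**Figure D2:**
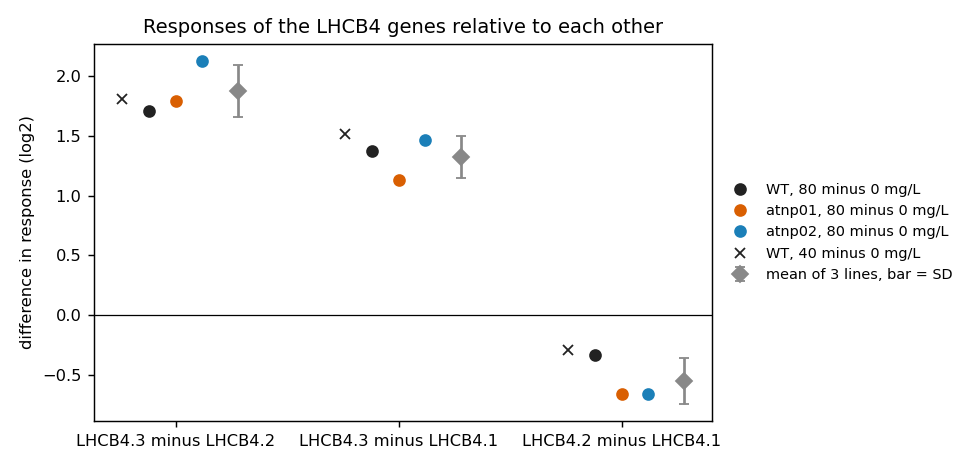
Difference between the responses of 2 LHCB4 genes (log2, vertical axis) for 3 pairs of genes (horizontal axis). Circles are single lines at 80 mg/L, crosses WT at 40 mg/L, and diamonds the mean of 3 lines with its SD; LHCB4.3 stands above both other genes in every line, and LHCB4.2 below LHCB4.1.

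Both photosystem genes fell, but they differed in WT at 40 mg/L. PSAN encodes a lumenal subunit of photosystem I at the site where plastocyanin docks. It was at 10.82 in WT, 10.86 in atnp01 and 10.87 in atnp02 without dots, and at 10.45, 10.48 and 10.27 at 80 mg/L. It fell by 0.45 (SE 0.07, adjusted p = 0.00139). The WT array at 40 mg/L, at 10.81, was within 0.01 of the unexposed one, and lay above all arrays at 80 mg/L.

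PSBY encodes small membrane proteins of photosystem II. It was at 10.74 in WT, 10.72 in atnp01 and 10.65 in atnp02 without dots, and at 10.39, 10.29 and 10.24 at 80 mg/L. The WT array at 40 mg/L, also at 10.39, was as low as that at 80 mg/L. The gene fell by 0.40 (SE 0.06, adjusted p = 0.00114), and the calls of PSAN and PSBY were kept in all 14 alternative fits.

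Both Calvin cycle genes fell, and RCA changed least of the 8. RCA encodes Rubisco activase, which frees the active site of the carbon-fixing enzyme from bound inhibitors. It was at 11.61, 11.61 and 11.62 without dots in WT, atnp01 and atnp02, and at 11.46, 11.49 and 11.46 at 80 mg/L, with 11.57 in WT at 40 mg/L. Its range over the 7 arrays was 0.16, and the arrays at 0 mg/L had an SD of 0.0051 among the 3 lines. RCA fell by 0.14 (SE 0.05, adjusted p = 0.0377), to 0.907 of its unexposed level. The call was lost in 7 of 14 alternative fits. It was lost without the atnp01 arrays (-0.15, adjusted p = 0.0946) and without the atnp02 arrays (-0.13, adjusted p = 0.161), and after loess normalization the coefficient was -0.02 and the difference in atnp01 was 0.06 in place of -0.12.

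SBPASE encodes sedoheptulose bisphosphatase, which commits carbon to regeneration of the acceptor of carbon dioxide. It was at 9.58 in WT, 9.51 in atnp01 and 9.35 in atnp02 without dots, and at 9.29, 9.11 and 9.12 at 80 mg/L, with 9.20 in WT at 40 mg/L. The highest exposed array, that of WT at 80 mg/L, lay 0.06 below the lowest unexposed one, that of atnp02. SBPASE fell by 0.31 (SE 0.07, adjusted p = 0.00806). The call was lost without the atnp01 arrays (-0.26, adjusted p = 0.0557) and with a linear dose term over all 7 arrays (adjusted p = 0.0554).

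**Figure D3:**
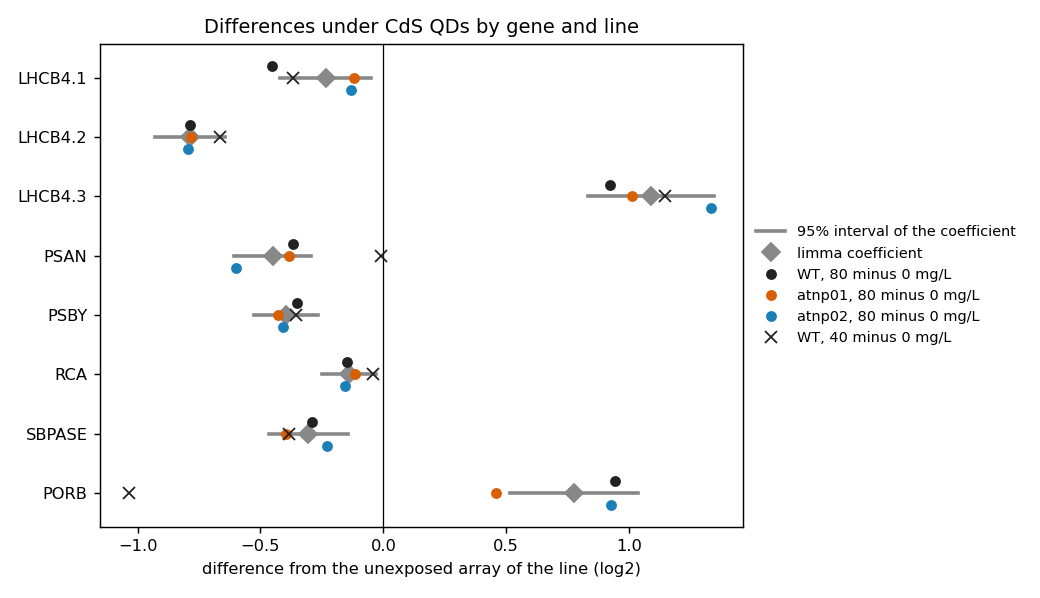
Log2 difference from the unexposed array of the same line (horizontal axis) for each gene (vertical axis). Circles are the lines at 80 mg/L, crosses WT at 40 mg/L, and diamonds with bars the limma coefficients with 95% intervals; the cross of PORB, at -1.03, lies on the other side of 0 from its circles.

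PORB, which encodes protochlorophyllide oxidoreductase, the enzyme of the light-dependent step of chlorophyll synthesis, spanned the widest range of the 8, 1.99 over the 7 arrays. It was at 7.28 in WT, 7.64 in atnp01 and 7.31 in atnp02 without dots, and at 8.22, 8.10 and 8.23 at 80 mg/L. All arrays at 80 mg/L were higher than all unexposed ones. In WT at 40 mg/L it was at 6.24, below every other array. PORB rose at 80 mg/L by 0.78 (SE 0.11, adjusted p = 0.00118), and its responses in WT, atnp01 and atnp02 were 0.94, 0.46 and 0.93. When WT at 40 mg/L was added to the exposed arrays, the coefficient was 0.40 (adjusted p = 0.493), and with a linear dose term the adjusted p was 0.184.

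In WT, most of the difference between unexposed and exposed plants was already present at 40 mg/L for 5 of the genes, PORB went the other way, and PSAN and RCA differed little from the unexposed array. The differences at 40 mg/L were 1.15 for LHCB4.3, -0.67 for LHCB4.2, -0.37 for LHCB4.1, -0.36 for PSBY, -0.38 for SBPASE, -0.04 for RCA, -0.01 for PSAN and -1.03 for PORB. After loess normalization those of RCA and PSAN were 0.05 and 0.06. LHCB4.3 and PORB passed 2-fold, where 7.36% of 1929 genes did. At 80 mg/L none of the 8 did in WT, where 8.09% of 1928 genes did, LHCB4.3 being at 0.92 and PORB at 0.94. These pairs share the unexposed WT array, and no pair of single arrays has an error estimate.

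Between WT at 80 and 40 mg/L, PORB was 2-fold apart and none of the other 7 genes was. Its difference of 1.98 ranked 8th from the top among 1872 genes, of which 2.46% were 2-fold apart in either direction. The others differed by between -0.36 (PSAN) and 0.09 (SBPASE).

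In the mutants, LHCB4.3 was the only 1 of the 8 genes that was 2-fold apart between 80 and 0 mg/L. It was higher by 1.01 in atnp01, where 11.3% of 1984 genes were 2-fold apart, and by 1.33 in atnp02, where 11.6% of 1921 genes were.

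No difference between the lines passed the test for any of the 8 genes. For atnp01 against WT, the coefficients lay between -0.17 (LHCB4.2) and 0.12 (PORB), with 95% intervals from -0.35 to 0.44, and 0.142% of 2106 genes passed. For atnp02 against WT, they lay between -0.20 (SBPASE) and 0.11 (LHCB4.3), with intervals from -0.40 to 0.42, and 0.0475% passed. At an unadjusted p under 0.05, limma gave 0 of the 8 genes for atnp01, where 9.45% of all tested genes had one, and 1 for atnp02, SBPASE, where 6.89% had one. The level of SBPASE was lower than in WT by 0.23 without dots and by 0.17 at 80 mg/L, with an adjusted p of 0.695. These fits take the 2 doses as replicates, and a miss does not show that the lines are alike.

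As single arrays, none of the 8 genes was 2-fold apart between a mutant and WT. Without dots, 0.601% of genes were 2-fold apart for atnp01 and 0.225% for atnp02. At 80 mg/L it was 1.36% for atnp01 and 1.26% for atnp02. The largest difference without dots was that of PORB in atnp01, 0.36 above WT. At 80 mg/L it was that of LHCB4.3 in atnp02, 0.31 above WT.

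Whether the response differs between WT and the mutants was fitted as a mutant-by-dose term, which has 1 residual degree of freedom and takes both mutants as 1 class. None of the 8 genes passed, and 0.0475% of 2106 genes did. LHCB4.1 alone of the 8 had an unadjusted p under 0.05 in limma, as did 9.97% of all tested genes, so that 1 of 8 is near the background. Its response was -0.45 in WT, -0.12 in atnp01 and -0.13 in atnp02, a term of 0.33 (SE 0.10, adjusted p = 0.341). At 80 mg/L its level was higher than in WT by 0.24 in atnp01 and by 0.22 in atnp02. The intervals of the term over the 8 genes reached from -0.73 to 0.74, so differences of that size are not shown to be absent.

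Of 6 lists of genes of photosynthesis and chlorophyll synthesis with 111 entries, the annotation held 22, of which 20 reached the floor. Of these, 12 fell, 2 rose and 6 did not pass, with a median of -0.24. These counts include the 8 genes described above, which all passed and were chosen with earlier results of these data known. They are therefore not set against the share over all genes. The 12 genes besides the 8 gave 6 that fell and none that rose, where 29.3% of all tested genes fell and 27.8% rose. The lists too were chosen with earlier results known. All 3 tested antenna genes are among the 8. None of 8 listed regulators was on the annotation used here. The photosystem I gene PSAE-1 fell by 0.24 (SE 0.06, adjusted p = 0.0106). Its call was lost after loess normalization, with no floor, and without the atnp01 or the atnp02 arrays. PSB27, of photosystem II assembly and repair, fell by 0.41 (SE 0.07, adjusted p = 0.00307). PSBW of photosystem II had a coefficient of -0.11, the ATP synthase gene ATPC1 of -0.13, the phosphoribulokinase gene PRK of -0.15 and AT1G56190, from the Calvin cycle list, of -0.20. None of these 4 passed.

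In chlorophyll synthesis, PORB moved opposite to the tested genes of its pathway that passed. Of 27 entries the annotation held 9, of which 7 reached the floor, with 4 that fell, PORB that rose and 2 that did not pass. CHLM, the methyltransferase just after magnesium insertion, was at 9.11, 9.26 and 9.16 without dots in WT, atnp01 and atnp02. It was at 8.60, 8.44 and 8.24 at 80 mg/L and at 8.31 in WT at 40 mg/L. It fell by 0.75 (SE 0.09, adjusted p = 0.000668).

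The uroporphyrinogen decarboxylase genes HEME1 and HEME2 fell by 0.55 (SE 0.14, adjusted p = 0.0127) and by 0.47 (SE 0.09, adjusted p = 0.00369). The call of HEME1 was lost without the atnp01 or the atnp02 arrays, and those of both genes were lost with a linear dose term. AT1G74470, which the gene table gives as geranylgeranyl reductase, the maker of the chlorophyll tail, fell by 0.44 (SE 0.06, adjusted p = 0.00122). HEMB1, of an early step, had a coefficient of -0.21 (adjusted p = 0.0726). GSA1, also of an early step and named after its value was seen, had one of -0.18 (adjusted p = 0.0618).

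CHLI2, a magnesium chelatase gene named after its values were seen, stayed below the floor and was not tested. It was at 5.45, 5.72 and 5.22 without dots in WT, atnp01 and atnp02, at 4.93, 4.73 and 4.29 at 80 mg/L, and at 4.28 in WT at 40 mg/L. All its exposed arrays were lower than all its unexposed ones. HEMA2, of the first committed step, was the other untested gene of the list and likewise named afterwards. It was at 1.67, 1.87 and 1.87 without dots, at 1.96, 2.05 and 2.07 at 80 mg/L, and at 1.82 in WT at 40 mg/L. Each exposed array was higher than the unexposed one of its line, by 0.15 to 0.29, at levels too dim to interpret.

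**Figure D4:**
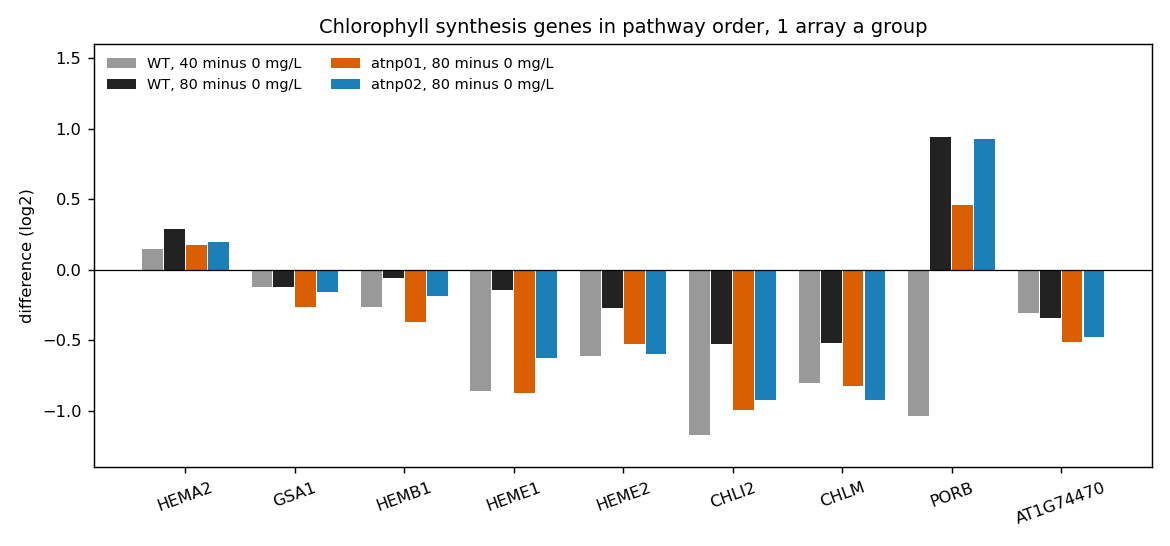
Log2 difference from the unexposed array (vertical axis) of 9 chlorophyll synthesis genes in the order of the pathway (horizontal axis), with 1 bar per exposed array and no error estimate. PORB and the dim, untested HEMA2 are higher at 80 mg/L in all lines while the bars of the other genes are below 0, and at 40 mg/L PORB lies below 0 with them.

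At 40 mg/L in WT, PORB differed in the same direction as the other tested genes. The 6 tested genes other than PORB had differences between -0.86 (HEME1) and -0.12 (GSA1), with a median of -0.46, at 40 mg/L. At 80 mg/L in WT they lay between -0.51 and -0.06, with a median of -0.21, so 5 of these 6 genes were no lower at 80 than at 40 mg/L, AT1G74470 being the exception at -0.04. At 80 mg/L the medians were -0.52 in atnp01 and -0.54 in atnp02. The response of HEME1 was -0.14 in WT, -0.87 in atnp01 and -0.63 in atnp02, a mutant-by-dose term of -0.61 (SE 0.17) that did not pass (adjusted p = 0.335).

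Genes listed for senescence and controls of RNA handling were read from the same arrays. Of 5 senescence entries 2 were on the annotation, and only SAG29 was tested, so ageing of the tissue was not assessed. The senescence gene SAG29 rose by 2.08 (SE 0.11, adjusted p = 4.64e-05). Like LHCB4.3 it reached the floor on its exposed arrays only, and with no floor the adjusted p was 0.000338. WRKY53, of the same list, was below the floor and not tested, at 1.67 to 2.28 without dots and 2.62 to 3.45 with them. NOL, a chlorophyll b reductase gene and the 1 gene of chlorophyll breakdown on the annotation, had a coefficient of 0.03 (adjusted p = 0.735). Of 8 root markers 2 were on the annotation: PYK10 fell by 0.25 (adjusted p = 0.00813), a call lost after loess normalization, and EXPA7 was at no more than 1.88 on any array. In whole seedlings, fewer green cells and less of a transcript per cell cannot be told apart. The reference genes GAPC2 and PEX4 had coefficients of -0.01 and 0.01. Poly-A controls, added to the RNA before amplification, had mean differences between 80 and 0 mg/L of -0.40 (WT), -0.72 (atnp01) and -0.48 (atnp02). The 3' minus 5' difference of the GAPDH probe sets moved by -0.30, 0.32 and 0.21 in the same order. That of the Actin probe sets moved by -0.06, -0.01 and 0.37, and that of the Ubq probe sets by -0.08, 0.06 and -0.06. Between WT at 40 and 0 mg/L, the poly-A controls differed by -0.33. The Actin, GAPDH and Ubq values moved there by -0.27, 0.02 and 0.02. The part of any of these in the results was not tested.

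Genes with the most similar profiles over the 7 arrays were sought among 438 genes that reached the floor and spanned at least log2 1. LHCB4.3 and PORB belong to these 438 and were compared with the 437 others. The rest of the 8 genes spanned less than log2 1, so they could not be listed as matches. For LHCB4.3 the most similar genes were AT4G16260, AT3G19010 and AT1G04780, with Pearson's r of 0.996, 0.995 and 0.994. For LHCB4.2 they were AT4G14360, ACLB-1, a subunit gene of ATP citrate lyase, and TBL25, with r of 0.992, 0.992 and 0.990. For PORB they were the dehydrin gene LTI30, AT4G26370 and AT3G04550, with r of 0.974, 0.971 and 0.965. LTI30, like PORB, was lowest in WT at 40 mg/L, at 6.06, and stood at 7.20 in WT at 80 mg/L. PSBY was most like TBL25, AT1G60590 and AT2G42220 (0.992, 0.990 and 0.989). RCA was most like AT5G51010, AT2G18370 and SKU5 (0.980, 0.973 and 0.967). PSAN was most like AT5G01740, AT3G15640 and AT1G18460 (0.965, 0.949 and 0.946). SBPASE was most like AGL87, AT1G60590 and AT1G29670 (0.962, 0.959 and 0.958). LHCB4.1 was most like AT5G47540, AT3G47295 and AT1G15260 (0.880, 0.865 and 0.860). These are descriptions over 7 arrays that share lines and exposures.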

How the data were processed

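The deposited values are log2 expression values per probe set, which the authors made by RMA in Affymetrix Expression Console 1.1, as the submitters' processing notes say. Whether a further step followed RMA is not given in the sources used here. Of 22810 probe sets, 64 were controls and 8730 were unnamed here. The platform annotation gave 13513 probe sets with 1 gene, of which 13436 matched the gene table of assembly TAIR10.1 and 77 kept the platform's symbol. For 146 genes with several probe sets, the one with the highest mean over the 7 arrays was used. Genes that reached log2 6 on the brightest of the 6 arrays at 0 and 80 mg/L were tested with limma 3.58.1 in R 4.3.3, with line and dose as terms and an intensity trend. This fit had 2 residual and 4.9 prior degrees of freedom, and adjusted p-values were taken over all tested genes. Tests were checked on simulated data. For limma these were drawn from the fitted model with independent noise, so the check does not cover shifts that exposed arrays share. Python 3.11.15 and pandas 2.3.3 served for the rest. Pairs of single arrays were described by genes at least 2-fold apart, with no p-value. The number of arrays limits the precision. Exposure cannot be told apart from handling that exposed samples share. Named were all 8 genes, up to 6 tested genes per list by size of the coefficient, and 3 similar genes for each of the 8. The genes, lists and tests were chosen with earlier results of these data known.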

Additional observations from a re-analysis of the deposited data

Results flagged for a closer look

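PORB was singled out because its differences from the unexposed WT array had opposite signs at the 2 doses. It differed by -1.03 at 40 mg/L and by 0.94 at 80 mg/L, from a level of 7.28. The difference between the doses was not tested, since each rests on 1 array.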

How the results depend on the processing

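All 8 genes kept the direction of their coefficient at 80 mg/L under every alternative fit that included them. LHCB4.2, PSAN and PSBY kept their calls in all 14, and LHCB4.3 in all 13 that tested it. In the fits that left out the arrays of 1 line, between 6 and 7 of the 8 genes passed and between 798 (without atnp01) and 1183 (without WT) of all genes, with 815 without atnp02. With a linear dose term 4 of the 8 genes and 780 of all genes passed. The count of 1202 genes was 2552 with no floor, 620 with a floor of log2 7 and 2583 over all probe sets. For atnp01 against WT, the 3 genes became 5 with array medians subtracted, 6 with a floor of log2 7 and 6 with robust moderation. For atnp02 the 1 gene became 2 with no trend, 3 with robust moderation and 0 over all probe sets. The mutant-by-dose count of 1 was 42 with medians subtracted, 10 with a floor of log2 7, 3 with robust moderation and 4 with probe sets averaged. It was 0 with loess normalization, with no floor, with no trend and over all probe sets, where 210 genes had an unadjusted p under 0.05 in the limma fit as reported. None of the 8 genes was among those calls in any of these fits. The causes were not tested. Scaling moved the median coefficient of all genes from -0.03 to 0.01 with loess and to -0.07 with medians subtracted. The line term pairs the arrays at 0 and 80 mg/L of each line. With no line term 1147 genes passed, and all 8 genes of the report were among them.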

Other observations

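Exactly equal values recurred between arrays. Of 22746 probe sets, 47.1% had the same value on at least 2 of the 7 arrays, and of the 4697 that reached log2 6 it was 18.0%. NOL stood at 6.32 on 5 of the 7 arrays, to all digits deposited, and PSBW at 9.92 on 3. GSA1, HEMA2, PEX4 and PYK10 each repeated 1 value on 2 arrays. For GSA1 these were the WT arrays at 40 and 80 mg/L, so its values there were tied. None of the 8 genes of the report repeated a value between arrays.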
